A study of Mus musculus with 8 samples.

Results

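The hypoxia-inducible factors and their regulators were examined in nuclei of the mouse primary visual cortex (V1) at postnatal day 21. Members were chosen by name, and all 10 were present among the 26711 features of the count matrix. They are the alpha subunits Hif1a, Epas1 and Hif3a, the beta subunits Arnt and Arnt2, the prolyl hydroxylases Egln1, Egln2 and Egln3, the ubiquitin ligase component Vhl and the secreted growth factor Vegfa. Levels are given as CPM, the UMIs of a gene per 1000000 UMIs of all genes, with UMIs summed over the nuclei of 1 cell type in 1 library.

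Hypoxia-inducible factors are transcription factors built from an alpha and a beta subunit. When oxygen is plentiful, the Egln enzymes hydroxylate the alpha subunit and the Vhl protein marks it for degradation, whereas in low oxygen the alpha subunit persists, pairs with Arnt or Arnt2 and switches on genes for glycolysis and blood vessel growth. Much of this control acts on protein and is not visible in RNA counts, while Hif3a is also known as a gene whose RNA responds to glucocorticoids in some tissues.

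All mice carried GR fl/fl alleles of Nr3c1, the glucocorticoid receptor (GR) gene, and received at birth an AAV2/5 vector in which the astrocyte promoter GfaABC1D drove the transgene. In GR-KO mice the vector encoded Cre with EGFP-CAAX, and in GR-Con mice an inactive ΔCre with EGFP-CAAX. Rearing was normal (NR) or dark (DR), and crossing it with the 2 genotypes gave 4 groups of 2 mice, each at postnatal day 21. The transgene depends on this promoter and on uptake of the virus, the controls also carry virus and EGFP, and nuclei were sorted as DRAQ5-positive and GFP-negative. Each group held 1 female and 1 male library, so libraries are named by group and sex.

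The 8 libraries held 102330 nuclei in 20 deposited cell types, with 168632129 to 288774016 UMIs a library and 924 to 1794 astrocyte nuclei. Nr3c1 was not lower in GR-KO astrocytes (268 to 284 CPM) than in GR-Con astrocytes (207 to 263 CPM), and gene-level counts do not separate the deleted part of the gene from the rest. Cre UMIs were found in all GR-KO libraries and in no GR-Con library (48, 86, 43 and 57 against 0 in astrocytes). Over all nuclei of the same GR-KO libraries there were 233, 1054, 281 and 190 Cre UMIs, so most of them lay outside nuclei called astrocytes, and their part in the values below was not tested. Of 45 marker genes, 42 had their highest level in the cell type they mark. Fezf2 and Bcl6, both markers of layer 5 pyramidal tract neurons, were higher in near-projecting neurons (73.1 against 48.3 CPM) and in astrocytes (119 against 65.2 CPM), and Rorb, the only marker of layer 4, was higher in astrocytes (1838 against 1516 CPM). These markers therefore did not single out either label, which are used as deposited. Microglia were nearly absent from NR GR-Con male, NR GR-KO male and DR GR-Con female (2, 4 and 4 nuclei, against 573 to 948 in the other libraries). DR GR-Con female also had 5 endothelial, 1 smooth muscle or pericyte and 3 vascular leptomeningeal nuclei. Of 101098 barcode sequences, 1220 occurred in more than 1 library. In astrocytes the summed level of 5 astrocyte markers was 13439 to 14203 CPM in NR GR-Con and 11306 to 11637 CPM in NR GR-KO, and 11839 to 12968 CPM in DR GR-Con and 12570 to 13650 CPM in DR GR-KO. Slc1a2 made up most of this sum (9165 to 10547 CPM in GR-Con and 8124 to 10072 CPM in GR-KO), and the members did not move together. Aqp4 was at 95.3 to 131 CPM in GR-Con and 174 to 192 CPM in GR-KO, Aldh1l1 at 155 to 209 CPM and 125 to 144 CPM, and the ranges of Slc1a3 and Gja1 overlapped between genotypes. The summed level of 3 oligodendrocyte precursor cell (OPC) markers, Pdgfra, Cspg4 and Vcan, was 30.7 to 54.3 CPM in GR-Con astrocytes and 76.0 to 130 CPM in GR-KO astrocytes, against 1879 to 2312 CPM in OPCs. The difference in this sum lay in Vcan (25.6 to 51.2 CPM in GR-Con and 70.4 to 126 CPM in GR-KO), while Pdgfra (1.49 to 2.39 and 1.83 to 3.97 CPM) and Cspg4 (1.62 to 3.29 and 2.01 to 3.19 CPM) overlapped, so the sum is not a measure of OPC RNA in these nuclei. Endothelial markers in astrocytes were at 32.2 to 49.6 CPM in GR-Con and 17.0 to 25.8 CPM in GR-KO. Neuronal markers were at 269 to 332 CPM in NR GR-Con and 479 to 489 CPM in NR GR-KO, and oligodendrocyte markers at 108 to 128 and 147 to 186 CPM. In DR the oligodendrocyte markers were at 68.5 to 90.6 CPM in GR-Con and 95.9 to 101 CPM in GR-KO, while the neuronal ranges overlapped. No marker of these lists was at 0, and the part of these shifts in the values below was not tested.

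The 3 alpha subunits had their highest mean levels in different cell types. Hif3a, which encodes the divergent alpha subunit with splice forms that can antagonise the others, had its highest mean level in astrocytes, with 170 ± 110 CPM (SD, n = 8 libraries), a spread that spans both genotypes. Vascular leptomeningeal cells (VLMC) followed with 56.1 ± 29.1 CPM (n = 7), then oligodendrocytes with 19.9 ± 23.7 CPM and layer 5 near-projecting neurons (L5NP) with 18.2 ± 3.62 CPM. Oligodendrocytes exceeded L5NP in only 4 of 8 libraries, and their mean holds 1 library, DR GR-Con female, at 72.9 CPM. Other than in L5NP, layer 5 pyramidal tract neurons (L5PT) and Vip interneurons, every neuronal type was at 2.87 CPM or less. In the 4 GR-Con libraries astrocytes were at 268 ± 47.4 CPM. Hif3a lies on chromosome 7 at 17031507-17062427, minus strand (GRCm38).

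The 250 bases before the Hif3a start are shown because the gene carries the main genotype difference of the family. They lie at chr7:17062428-17062677 on GRCm38.p6 and are written 5′ to 3′ on the minus strand of the chromosome, which is the sense strand of the gene, from RefSeq. Capitals mark matches to GCGTG on either strand, a core of the hypoxia response element.
Hif3a upstream: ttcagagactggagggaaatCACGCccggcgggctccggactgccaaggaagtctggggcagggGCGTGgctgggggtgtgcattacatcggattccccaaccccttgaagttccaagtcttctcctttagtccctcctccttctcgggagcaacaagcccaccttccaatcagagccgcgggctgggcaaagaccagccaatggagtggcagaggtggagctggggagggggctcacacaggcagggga
The 2 matches start 230 and 186 bases before the gene start. GCGTG occurred in 32.39% and the other core searched, ACGTG, in 19.62% of 32851 RefSeq promoter windows of 300 bases, searched on both strands, and ACGTG was not found in the Hif3a window. The glucocorticoid half-site AGAACA was likewise not among its letters on either strand, and it was in 18.97% of all windows. The window covers only the letters next to the start. By CUT&RUN, a binding assay, the study shows GR signal at Hif3a in younger astrocytes and reports weaker recruitment in GR-KO. It also lists Hif3a among the GR-activated genes of these nuclei. Where that binding lies relative to this window was not tested.

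Epas1, which encodes HIF-2 alpha and is known for its high level in blood vessels, was highest in endothelial cells with 581 ± 132 CPM (n = 7) and then in smooth muscle cells and pericytes with a mean of 251.2 ± 93.8 CPM (n = 6). Astrocytes (135 ± 22.2 CPM, n = 8) and OPCs (97.7 ± 21.8 CPM) were the next in order, and every neuronal type was at 1.87 CPM or less. Endothelial cells exceeded smooth muscle cells and pericytes in 6 of 6 libraries, and astrocytes exceeded OPCs in 8 of 8. Hif1a, the broadly used alpha subunit, spanned a much narrower range, from 34.4 ± 6.05 CPM in Vip interneurons to 110 ± 14.9 CPM in OPCs, with microglia second (92.3 ± 8.94 CPM, n = 5). Epas1 lies on chromosome 17 at 86753700-86833410 and Hif1a on chromosome 12 at 73901375-73947530, both on the plus strand, and Hif1a overlaps the gene Gm15283 on the other strand.

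The beta subunits differed in how far their levels spread over cell types. Arnt, the general partner of the alpha subunits, was between 88.5 ± 4.65 CPM in L5PT and 185 ± 107 CPM in smooth muscle cells and pericytes (n = 6). Arnt2, known as its relative in neurons, ranged from 18.8 ± 6.25 CPM in microglia (n = 5) to 548 ± 37.3 CPM in Sst interneurons, with Pvalb interneurons at 450 ± 26.5 CPM, Vip interneurons at 362 ± 27.0 CPM and astrocytes at 337 ± 21.9 CPM. VLMC ranked between Pvalb and Vip interneurons, and astrocytes and OPCs had higher means than every excitatory neuron type. Sst interneurons exceeded Pvalb interneurons in 8 of 8 libraries, by 0.28 ± 0.10 on the log2(CPM + 1) scale. Arnt lies on chromosome 3 at 95434388-95497240 on the plus strand and Arnt2 on chromosome 7 at 84246278-84410176 on the minus strand, where it overlaps Gm30873 on the other strand.

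Among the oxygen sensors, Egln1 was highest in endothelial cells (56.4 ± 19.1 CPM, n = 7) and layer 2/3 (L2/3) neurons (48.3 ± 7.01 CPM), and the other 18 types lay between 23.9 and 36.9 CPM. Egln2 was lower throughout, from 4.49 to 15.5 CPM. Egln3, itself a known target of hypoxia signalling, was restricted to few types. Vip interneurons had 17.8 ± 5.72 CPM and VLMC 13.6 ± 10.3 CPM (n = 7), while every other type had 3.15 CPM or less. In smooth muscle cells and pericytes no Egln3 UMI was found, which allows up to 2.25 CPM at 3 counts. Vhl, which recognises the hydroxylated alpha subunits, was highest in microglia (41.7 ± 4.96 CPM, n = 5) and then in astrocytes (28.9 ± 1.75 CPM), with microglia above astrocytes in 5 of 5 libraries. Egln1 lies on chromosome 8 at 124908587-124949324, Egln2 on chromosome 7 at 27158658-27166802, where it overlaps Cyp2t4 on the other strand, and Egln3 on chromosome 12 at 54178981-54203860, all on the minus strand. Vhl lies on chromosome 6 at 113623959-113631633 on the plus strand.

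Vegfa, the vascular growth factor downstream of the HIFs, was an astrocyte gene in these nuclei. Astrocytes had 361 ± 45.8 CPM, OPCs 158 ± 29.1 CPM and VLMC 81.3 ± 30.2 CPM (n = 7), while the lowest level was in layer 6 corticothalamic neurons (L6CT) with 7.42 ± 1.02 CPM. Astrocytes exceeded OPCs in 8 of 8 libraries, by 1.20 ± 0.31 on the log2(CPM + 1) scale. Vegfa lies on chromosome 17 at 46016993-46032369, minus strand.

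The highest and the second highest cell type of each member were compared within libraries by a two-sided exact sign-flip permutation test, adjusted by the Benjamini-Hochberg method over the 10 members. The difference passed for Arnt2 (Sst against Pvalb) and Vegfa (astrocytes against OPCs), both with an exact p of 0.00781, the smallest that 8 libraries allow, and an adjusted p of 0.0391. The other 8 members did not pass. Hif1a, Arnt, Egln2 and Vhl could not pass, since only 5 libraries held both types and the smallest possible p is then 0.0625. Epas1 was at the smallest p that its 6 libraries allow, 0.03125 by the same exact permutation test (adjusted p = 0.104). For Hif3a, astrocytes exceeded VLMC in 6 of 7 libraries (adjusted p of 0.117 by the exact permutation test), and in the 3 GR-Con libraries with enough VLMC the difference was 2.56 ± 0.17 on the log2 scale. Since the order was read from the same values, passing says nothing new about which type is highest. The p-values depend on how far the libraries agree and on how many there are. Over the whole order there were 190 neighbouring pairs of cell types, those above included, and in 21 of them the higher type was higher in every library. With the adjustment over all 190 none passed by the exact permutation test (smallest adjusted p of 0.186), where the smallest unadjusted p that 8 libraries allow is 0.00781.

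**Figure D1:**
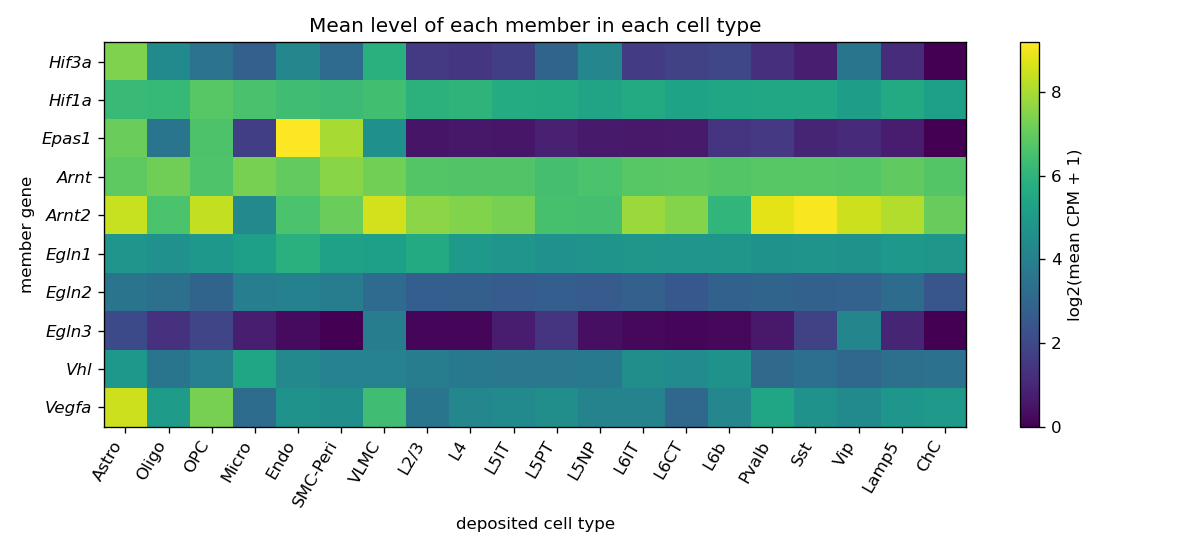
Mean CPM of each member (rows) in each deposited cell type (columns) over the libraries with at least 10 nuclei of that type, as log2(mean CPM + 1). Rows are read from left to right, since levels are not scaled to gene length: Hif3a and Vegfa peak in astrocytes, Epas1 in endothelial cells, Arnt2 in Sst interneurons and Egln3 in Vip interneurons.

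By Pearson correlation of log2(mean CPM + 1) over the 20 cell types, among 11105 genes with at least 20 CPM in at least 1 type, Hif3a was most alike to Gm7967 (r = 0.875), Plpp3 (r = 0.874) and Fgfr3 (r = 0.868). These 3 genes had their own highest level in astrocytes. Epas1 was nearest to Acacb (r = 0.936), Notch1 (r = 0.926) and Tril (r = 0.924), and Vegfa to Gm9750 (r = 0.913), Gldc (r = 0.911) and Tlcd1 (r = 0.901). Hif1a was nearest to Chtop (r = 0.908), Tmem209 (r = 0.902) and Rnf219 (r = 0.899), all highest in OPCs. For the beta subunits the nearest genes were Fbrs (r = 0.951), Rbck1 (r = 0.929) and Ubap2l (r = 0.927) for Arnt, and Dzip1 (r = 0.877), Fgd1 (r = 0.869) and Chic1 (r = 0.847) for Arnt2. Egln1 was nearest to Ism1 (r = 0.868), Ocln (r = 0.837) and Rnf19a (r = 0.829), Egln2 to Tcaim (r = 0.953), Nedd8 (r = 0.952) and Rhoa (r = 0.951), and Egln3 to Aebp1 (r = 0.758), Grpr (r = 0.752) and Calcoco1 (r = 0.749). Vhl was nearest to Cmya5 (r = 0.843), Phyhd1 (r = 0.836) and Nr3c1 (r = 0.833). Unlike the levels above, these means took all 8 libraries, also those with under 10 nuclei of a type. The points are cell types of the same libraries and share their depth, so the correlations are descriptions.

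The first question of the design was whether loss of GR in astrocytes changed the members there. Hif3a fell in GR-KO astrocytes under both rearings, to 26.6% of its GR-Con level, and it was the only member called in any of the 7 comparisons in astrocytes. In NR GR-Con astrocytes Hif3a was at 272 CPM in the female and 334 CPM in the male library, and in NR GR-KO at 68.9 and 75.2 CPM. In DR GR-Con it was at 229 and 239 CPM, and in DR GR-KO at 71.5 and 70.5 CPM. All 4 GR-KO libraries lay below all 4 GR-Con libraries, and the GR-KO libraries were closer to each other (71.5 ± 2.66 CPM, n = 4) than the GR-Con libraries. A total of 10564 Hif3a UMIs lay behind these values.

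The log2 fold change of Hif3a in GR-KO against GR-Con was -2.14 (SE 0.16, adjusted p = 1.38e-35) in NR, -1.70 (SE 0.19, adjusted p = 4.16e-15) in DR and -1.92 (SE 0.13, adjusted p = 3.87e-42) over both rearings, by edgeR's likelihood ratio test with Benjamini-Hochberg adjustment over all genes tested in astrocytes. This was 1 of 10 members in each of the 3 comparisons, beside 7.11% of all genes called in NR, 0.736% in DR and 4.79% over both rearings. By the edgeR quasi-likelihood F-test, Hif3a passed in NR (adjusted p = 0.000135, with 5.15% of genes called) and over both rearings (adjusted p = 7.65e-05, with 2.85% called). These were the highest adjusted p values among the alternatives tried with edgeR and DESeq2, which began at 3.49e-103 in NR and 5.98e-54 over both rearings. In DR it narrowly missed the threshold by the quasi-likelihood F-test (adjusted p = 0.0523), which called 0% of genes there (0 of 14139, with 874 at an unadjusted p under 0.05), whereas DESeq2 called 61 genes and gave Hif3a an adjusted p of 3.09e-13. Over the 11 alternatives tried for DR the adjusted p of Hif3a ranged from 5.87e-42 to 0.0523.

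**Figure D2:**
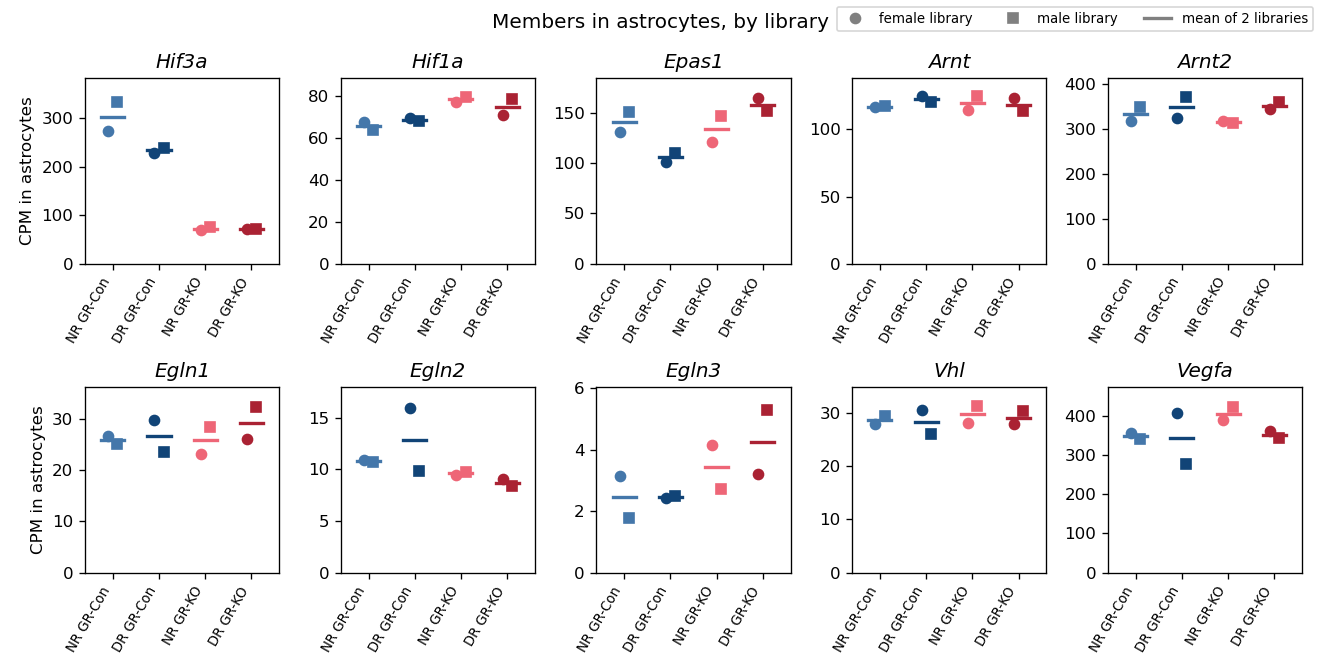
CPM of each member in astrocytes (vertical axes from 0) in the 4 groups, with circles for female and squares for male libraries and bars for the mean of 2 libraries. The 4 GR-KO libraries of Hif3a sit between 68.9 and 75.2 CPM, all below the GR-Con libraries at 229 to 334 CPM.

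The other alpha subunits did not follow Hif3a. Epas1 was at 131 and 151 CPM in NR GR-Con and 121 and 147 CPM in NR GR-KO, where the groups overlapped. In DR it was at 101 and 111 CPM in GR-Con and 164 and 152 CPM in GR-KO, with no overlap. Its log2 fold change was -0.14 (SE 0.15) in NR and 0.60 (SE 0.19) in DR, and neither passed the likelihood ratio test of edgeR (adjusted p = 0.807 and 0.162). In DR the call was made by 3 of 11 alternatives, including those without DR GR-Con female (adjusted p = 0.00845, edgeR) and without DR GR-Con male (adjusted p = 1.97e-07, edgeR), over a range of 1.97e-07 to 1.00. The log2 genotype difference in NR less the one in DR was -0.75 (SE 0.24, adjusted p = 0.180 by edgeR's likelihood ratio test), and it passed in 2 of 15 alternatives. Hif1a was at 64.0 to 69.7 CPM in the 4 GR-Con libraries and 71.1 to 79.8 CPM in the 4 GR-KO libraries, so the genotypes did not overlap, but the log2 fold change over both rearings was 0.16 (SE 0.10) and did not pass (adjusted p = 0.538, edgeR).

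The beta subunits and Vhl lay close together in all groups. Over both rearings the log2 fold change was -0.03 (SE 0.10) for Arnt, -0.06 (SE 0.11) for Arnt2 and 0.02 (SE 0.12) for Vhl, whose levels were 113 to 125, 314 to 372 and 26.0 to 31.3 CPM. For Arnt the 95% interval of the log2 difference ran from -0.23 to 0.16 and for Arnt2 from -0.27 to 0.16. Egln1 was likewise at 23.2 to 32.4 CPM in all 8 libraries (log2 fold change 0.04, SE 0.14).

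Egln2 and Egln3 had fewer UMIs and wider errors. Egln2 was at 9.84 to 15.9 CPM in GR-Con and 8.42 to 9.72 CPM in GR-KO, a log2 fold change of -0.37 (SE 0.19, adjusted p = 0.349 by edgeR) over 666 UMIs. Egln3 was at 1.78 to 3.14 CPM in GR-Con and 2.73 to 5.31 CPM in GR-KO, a log2 fold change of 0.61 (SE 0.30, adjusted p = 0.330 by edgeR) over 199 UMIs. Neither difference passed the test.

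Vegfa was at 276 to 408 CPM in GR-Con and 342 to 422 CPM in GR-KO astrocytes. The log2 fold change was 0.11 (SE 0.13, adjusted p = 0.860 by edgeR), and its 95% interval ran from -0.15 to 0.37. Over the 10 members the median log2 fold change over both rearings was 0.03, beside 0.00 over all genes tested.

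**Figure D3:**
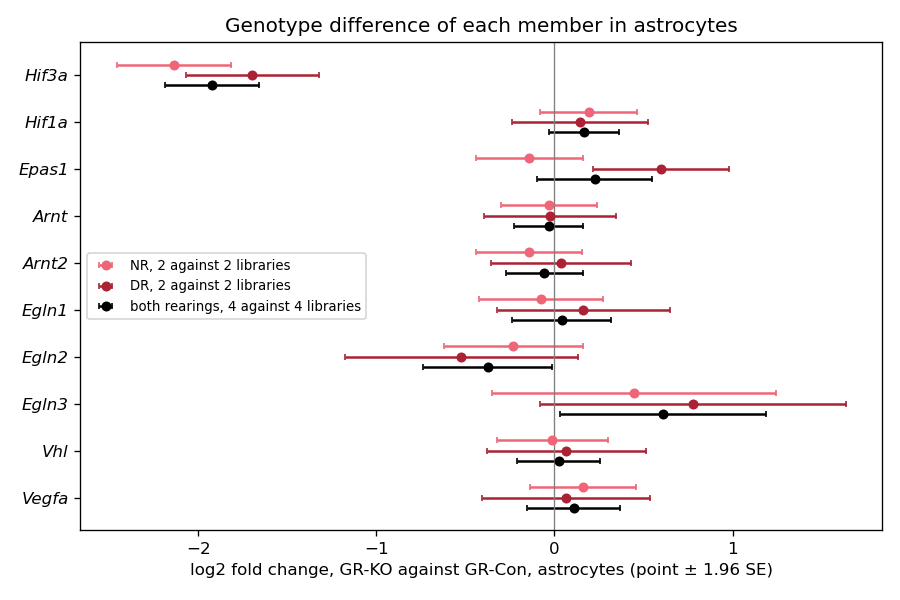
Log2 fold change of each member in astrocytes, GR-KO against GR-Con, with bars for the 95% interval, in NR, in DR (2 against 2 libraries each) and over both rearings (4 against 4 libraries). Hif3a lies between -2.14 and -1.70, apart from the other 9 members, whose points lie between -0.52 and 0.78.

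Hif3a was also read in single nuclei. After thinning each astrocyte nucleus to 2000 UMIs, which left out 2 to 26 shallower nuclei a group, 43.5% ± 5.95 of NR GR-Con and 36.2% ± 0.68 of DR GR-Con nuclei held a Hif3a UMI (SD, n = 2 libraries). In NR GR-KO the share was 11.8% ± 0.78 and in DR GR-KO 11.2% ± 0.05. The unthinned shares were 77.5%, 72.0%, 36.5% and 23.0% in the same order, at median depths of 5927, 6253, 10393 and 5058 UMIs. In oligodendrocytes, which served as a comparison, the thinned shares of the 4 groups lay between 0.90% and 6.02%, but single libraries ranged from 0.39% in DR GR-Con male to 11.6% in DR GR-Con female, which is as high as in GR-KO astrocytes. In GR-KO the astrocyte share was above that in oligodendrocytes of the same rearing (2.68% in NR and 0.90% in DR).

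A vector transcript was detected in 51 to 140 astrocyte nuclei a library, as a UMI of EGFP or Cre. In the 4 GR-KO libraries, Hif3a was at 43.7 ± 8.03 CPM in nuclei with a vector UMI and 75.4 ± 4.68 CPM in nuclei without one. It was lower in nuclei with a vector UMI in 4 of 4 GR-KO libraries, by 0.79 ± 0.33 on the log2 scale (two-sided exact sign-flip permutation test, p = 0.13, the smallest that 4 libraries allow). In the 4 GR-Con libraries the levels were 280 ± 46.0 and 268 ± 47.9 CPM, with a difference of 0.07 ± 0.10 and a lower level in 1 of 4 libraries (exact permutation p = 0.25). Vegfa, read in the same way in GR-KO nuclei, was at 391 ± 69.5 CPM with and 375 ± 30.5 CPM without a vector UMI. With an EGFP UMI alone as the definition, which is the same in both genotypes because GR-Con has no Cre UMIs, the difference in GR-KO was -0.64 ± 0.40, and in DR GR-KO female it was -0.11 in place of -0.47. A nucleus without a vector UMI can still carry the vector.

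**Figure D4:**
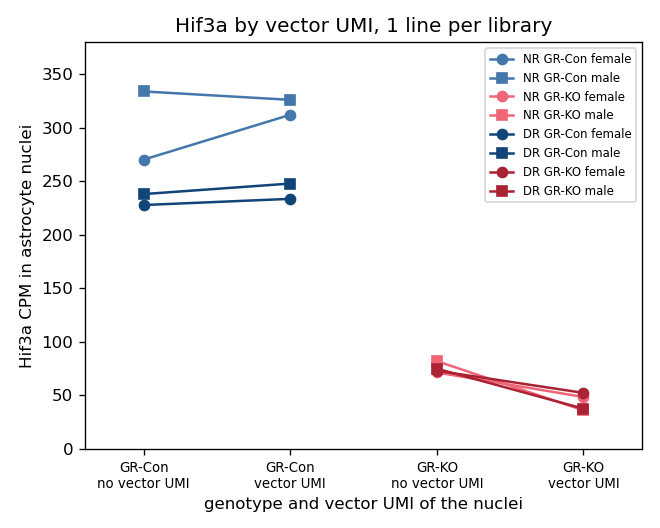
Hif3a CPM in astrocyte nuclei without and with a vector UMI, 1 line per library, on an axis from 0. The 4 GR-KO lines fall, from 71.5 to 82.1 CPM without to 36.1 to 52.4 CPM with a vector UMI, while the GR-Con lines stay at 228 to 334 CPM.

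Outside astrocytes, the genotype difference of Hif3a was set against that in astrocytes, library by library. On the log2(CPM + 1) scale the difference was -1.88 in astrocytes, -0.17 in L5NP, -0.33 in L5PT and -0.76 in Vip interneurons. In these 3 neuronal types it differed from that in astrocytes, by -1.70, -1.55 and -1.12 (two-sided exact permutation test over 8 libraries, p = 0.0286 each, the smallest possible, adjusted p = 0.0476 over 5 types). With a pseudocount of 0.1 CPM in place of 1, the adjusted p values by the same exact permutation test were 0.0714, 0.0714 and 0.143. In oligodendrocytes and OPCs the genotype difference was -1.17 and -1.02, and it did not differ from that in astrocytes by the exact permutation test (adjusted p = 0.429 for both).

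The values behind these differences were as follows. In L5NP Hif3a was at 14.5 to 23.9 CPM in GR-Con and 14.6 to 21.7 CPM in GR-KO, so the genotypes overlapped. In Vip interneurons it was at 7.30 to 16.7 CPM in GR-Con and 4.35 to 9.98 CPM in GR-KO, and the log2 fold change of -0.84 (SE 0.22) did not pass (adjusted p = 0.115, edgeR). Oligodendrocytes had 16.3, 29.5, 72.9 and 2.31 CPM in NR GR-Con female, NR GR-Con male, DR GR-Con female and DR GR-Con male, and 5.51, 23.8, 4.78 and 4.44 CPM in NR GR-KO female, NR GR-KO male, DR GR-KO female and DR GR-KO male. The 3 highest of these were the libraries with almost no microglia, and the same libraries were the 3 highest in OPCs (15.7, 38.7 and 8.51 CPM, against 2.35 to 5.40 CPM in the other 5). The summed astrocyte markers in oligodendrocytes were 118 to 189 CPM and did not single out those libraries. In the fit over both rearings Hif3a was tested in 12 other cell types, and 0 passed by the likelihood ratio test of edgeR (lowest adjusted p = 0.0840), by the quasi-likelihood F-test or by DESeq2, with 7 at an unadjusted p under 0.05 by the likelihood ratio test. At the adjusted threshold that test called 0.0803% of all pairs of a gene and a type. The share of all pairs at the unadjusted threshold is not given. The fitted value was lower in GR-KO in all 12 types, with log2 fold changes from -1.82 to -0.18. What astrocyte RNA shared between droplets contributes to the low Hif3a levels in these types was not tested.

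In VLMC the Hif3a level rests on few UMIs. It was 47.1 and 48.8 CPM in NR GR-Con, 43.5 CPM in the DR GR-Con library with enough nuclei, 30.7 and 38.7 CPM in NR GR-KO, and 66.7 and 117 CPM in DR GR-KO, from 137 UMIs in all. It was 16.7% ± 1.85 of the astrocyte level of the same library in GR-Con (n = 3) and 88.9% ± 55.9 in GR-KO (n = 4), while the astrocyte level itself fell. In NR the log2 fold change by genotype was -0.49 (SE 0.41, adjusted p = 1.00 by edgeR). The summed astrocyte markers in VLMC were 1113 to 1754 CPM in NR and 2525 to 3421 CPM in the 3 DR libraries with enough nuclei. Most of that difference was Slc1a3 (556 to 835 CPM in NR and 1620 to 1972 CPM in DR), and the ranges of Aqp4, Slc1a2 and Aldh1l1 overlapped between rearings.

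**Figure D5:**
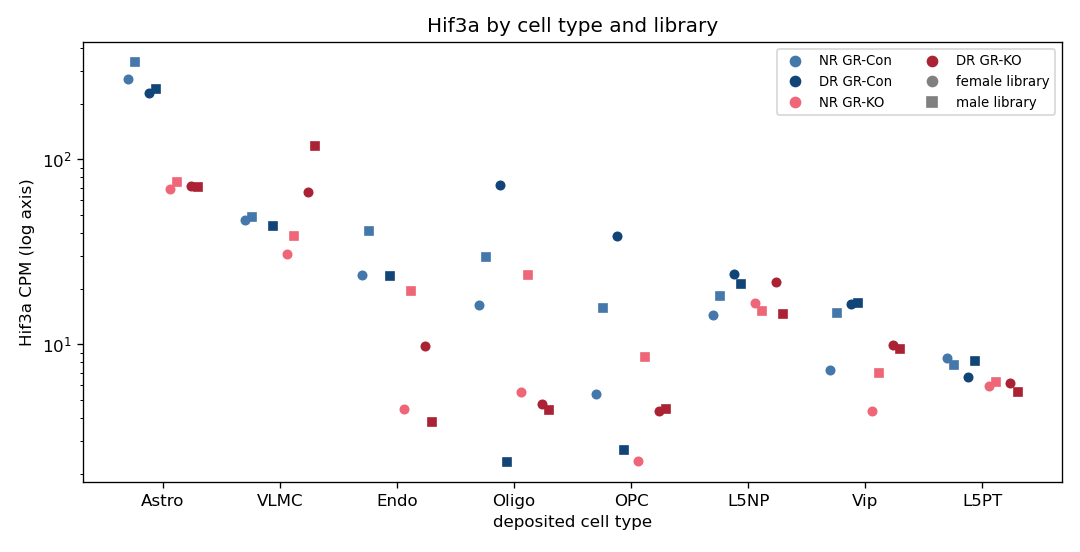
Hif3a CPM (log axis) in 8 cell types, 1 point per library with at least 10 nuclei of that type, coloured by group. Astrocytes separate by genotype, L5NP does not, and oligodendrocytes and OPCs spread from 2.31 to 72.9 and from 2.35 to 38.7 CPM.

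Outside astrocytes, few pairs of a member and a cell type passed any comparison. Tests could be made for 119 to 134 of 140 to 170 such pairs. The others did not pass the filter on low counts, most often Egln3, tested in 3 of 16 types by genotype in NR, and Epas1, tested in 9 of 16. Microglia never had enough nuclei in every library and are not among these types. For GR-KO against GR-Con, 0 of 134 pairs were called in NR and 0 of 125 over both rearings by the likelihood ratio test, beside 0.37% and 0.0803% of all pairs of a gene and a type. In DR 2 of 119 pairs were called, beside 0.496%. For the interaction (how far the GR-KO effect differed between rearings), 0 of 10 members were called in astrocytes, beside 0.386% of genes, and 0 of 125 pairs elsewhere, beside 0.166%. At an unadjusted p under 0.05 by the likelihood ratio test of edgeR there were 7 pairs by genotype in NR, 9 over both rearings and 15 for the interaction outside astrocytes, and 1 member for the interaction in astrocytes. The quasi-likelihood F-test and DESeq2 called 0 in each of these. Outside astrocytes the F-test called 0.0318%, 0.00246% and 0.00246% of all pairs in the same order, and DESeq2 0.101%, 0.0429% and 0.1%. The shares of all genes and pairs at that unadjusted threshold are not given, so these counts are no result about the members.

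The pairs called in DR were Vegfa in OPCs and Arnt2 in layer 6b (L6b) neurons. Vegfa rose in DR GR-KO OPCs, with 118 and 130 CPM in GR-Con and 170 and 213 CPM in GR-KO. Its log2 fold change was 0.61 (SE 0.15, adjusted p = 0.0169 by the edgeR likelihood ratio test). Arnt2 fell in DR GR-KO L6b neurons, from 90.8 and 83.3 to 57.0 and 46.5 CPM (log2 fold change -0.74, SE 0.19, adjusted p = 0.0312 by edgeR). Both calls were lost by the quasi-likelihood F-test (adjusted p = 0.159 and 0.393) and by DESeq2 (adjusted p = 1.00 and 0.316), and without any 1 of 3 of the 4 libraries (DR GR-Con female, DR GR-KO female or DR GR-KO male). Each was called in 5 of the 11 alternatives tried, over which the adjusted p of edgeR and DESeq2 ranged from 1.03e-05 to 1.00 for Vegfa and from 0.00811 to 0.721 for Arnt2.

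The second question was what dark rearing did to the members. In astrocytes no member was called in DR against NR by the likelihood ratio test: 0 of 10 in GR-Con, beside 0.147% of genes, 0 of 10 in GR-KO, beside 2.85%, and 0 of 10 over both genotypes, beside 0.935%. At an unadjusted p under 0.05 by edgeR there were 1, 1 and 0 members, and the quasi-likelihood F-test and DESeq2 called 0 in each. The shares of all genes at that threshold and by those tests are not given, so these counts are no result about the members. Hif3a was lower in DR GR-Con than in NR GR-Con astrocytes in both libraries, but the log2 fold change of -0.39 (SE 0.21) did not pass (adjusted p = 1.00, edgeR), and in GR-KO it was 0.06 (SE 0.13). Epas1 had a log2 fold change of -0.42 (SE 0.21) in GR-Con and 0.32 (SE 0.14) in GR-KO, and neither passed (adjusted p = 1.00 and 0.243, edgeR). The comparisons by genotype and by rearing share libraries, so their values are not independent.

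With dark rearing the share of members called outside astrocytes was near or below that of all genes. In GR-Con 3 of 122 pairs were called, all lower in DR and all in L2/3 neurons, beside 2.4% of all pairs. That share is pooled over 14 types and does not show how often genes were called in L2/3 neurons alone. Vhl was at 17.0 and 17.4 CPM in NR and 10.7 and 11.2 CPM in DR (log2 fold change -0.70, SE 0.15, adjusted p = 0.000128 by edgeR). Arnt2 was at 232 and 236 CPM in NR and 170 and 160 CPM in DR (log2 fold change -0.55, SE 0.14, adjusted p = 0.00326 by edgeR). Neither gene overlapped between the groups. Vegfa had a mean of 12.4 ± 0.49 CPM in NR (n = 2) and 7.81 and 9.63 CPM in DR, and it passed only narrowly (log2 fold change -0.55, SE 0.19, adjusted p = 0.0475 by edgeR). It was lost by the quasi-likelihood F-test (adjusted p = 0.122) and without NR GR-Con female, NR GR-Con male or DR GR-Con female (adjusted p of 0.598, 0.408 and 0.127 by edgeR), and it was called in 5 of 11 alternatives. Without NR GR-Con female or NR GR-Con male, the calls of Vhl (adjusted p = 0.0842 and 0.115, edgeR) and Arnt2 (adjusted p = 0.279 and 0.142, edgeR) were lost too.

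Over both genotypes 4 of 125 pairs were called, all lower in DR, beside 5.55% of all pairs, likewise pooled over 14 types. In L2/3 neurons these were Vhl again (log2 fold change -0.57, SE 0.13, adjusted p = 0.000535 by edgeR), which was at 13.0 to 17.4 CPM in the 4 NR and 10.2 to 11.5 CPM in the 4 DR libraries, and Arnt2 (-0.40, SE 0.12, adjusted p = 0.00915 by edgeR). Vhl passed in 15 of 15 alternatives. Arnt2 passed in 10 of 15 and was lost without NR GR-Con female, NR GR-Con male, NR GR-KO female, DR GR-Con female or DR GR-KO male (adjusted p of 0.0592 to 0.0840 by edgeR). The others were Hif1a (-0.30, SE 0.10, adjusted p = 0.0220) and Hif3a (-0.67, SE 0.22, adjusted p = 0.0283, both by edgeR) in L6CT neurons. Hif1a was at 42.7 to 43.9 CPM in NR and 29.8 to 38.6 CPM in DR, without overlap, and it was called in 7 of 15 alternatives. The call was lost without any 1 library other than the DR GR-Con female and male (adjusted p up to 0.145 by edgeR), with no filter on low counts (adjusted p = 0.0506, edgeR) and without the 3 libraries with few microglia (adjusted p = 0.132, edgeR). Hif3a in these neurons was at only 1.57 to 3.43 CPM. Of the astrocyte markers Slc1a2 was at 887.5 to 1030.7 CPM there in NR and 669.1 to 888.1 CPM in DR, which barely overlapped. The others were at 27.7 CPM or less, with overlapping ranges. Mean levels were lower in DR for Slc1a2 (766 against 967 CPM), Slc1a3 (5.08 against 6.53 CPM), Gja1 (2.35 against 3.02 CPM) and Aqp4 (0.81 against 1.11 CPM). Only Aldh1l1 was higher in DR (23.8 against 16.5 CPM). The part of these shifts in the Hif3a value was not tested. The Hif3a call was lost by the quasi-likelihood F-test (adjusted p = 0.0700, edgeR) and without NR GR-Con female, NR GR-Con male, NR GR-KO female, DR GR-Con female or DR GR-KO male (adjusted p up to 0.147 by edgeR).

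In GR-KO mice 3 of 133 pairs were called for DR against NR, beside 3.71%. Epas1 rose in OPCs, from 64.0 and 91.8 CPM in NR to 113 and 135 CPM in DR (log2 fold change 0.70, SE 0.16, adjusted p = 0.00201 by edgeR), and it also passed the quasi-likelihood F-test (adjusted p = 0.00370) but not without NR GR-KO female (adjusted p = 0.0715, edgeR) or DR GR-KO male (adjusted p = 0.206, edgeR). Hif3a rose in VLMC, by 1.15 (SE 0.42, adjusted p = 0.0361 by edgeR), where the summed astrocyte markers were higher in DR through Slc1a3 and Gja1, and this was lost by the quasi-likelihood F-test (adjusted p = 0.0792), by DESeq2 (adjusted p = 0.525) and without NR GR-KO female, NR GR-KO male or DR GR-KO male (adjusted p of 0.0628 to 0.487 by edgeR), leaving it called in 4 of 10 alternatives. Egln3 fell in L5PT neurons from 1.85 and 2.96 to 0.69 and 0.72 CPM (log2 fold change -1.89, SE 0.47, adjusted p = 0.00854 by edgeR). This was lost by the quasi-likelihood F-test (adjusted p = 0.269, edgeR) and without NR GR-KO male, DR GR-KO female or DR GR-KO male (adjusted p of 0.433 to 0.547 by edgeR), and NR GR-KO female held only 59 L5PT nuclei.

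Of the further genes of the pathway, a list of 20 HIF regulators and cofactors (such as the inhibitor Hif1an and the coactivators Ep300 and Crebbp) had 19 tested in astrocytes. None was called by genotype by the likelihood ratio test, beside 7.11% of all genes in NR, 0.736% in DR and 4.79% over both rearings. The 19 genes had median log2 fold changes of 0.02, 0.02 and 0.03 in the same order. In DR against NR over both genotypes 1 of them was lower, the chaperone Hsp90aa1 (log2 fold change -0.55, SE 0.14, adjusted p = 0.0175 by edgeR, 0.157 by the quasi-likelihood F-test). This is 5.26% of the list beside 0.935% of all genes. Outside astrocytes 14 of 269 pairs of this list were lower in DR over both genotypes and 1 was higher, beside the 5.55% of all pairs.

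Between 0 and 4 of the hypoxia response genes, the downstream targets, were called by genotype in astrocytes. Of 47 listed symbols, 46 were in the matrix and 36 were tested. The list holds Ero1l and Ero1a, which name the same gene. In NR 2 were lower and 0 higher (5.56%, beside 7.11% of all genes), in DR 0 were called (beside 0.736%), and over both rearings 2 were higher and 2 lower (11.1%, beside 4.79%). The quasi-likelihood F-test called 1, 0 and 2 of them. The list had median log2 fold changes of 0.00, 0.10 and 0.09 in the same order, beside 0.00, -0.01 and 0.00 over all genes. P4ha2, a collagen prolyl hydroxylase, fell from 29.1 to 43.8 CPM in GR-Con to 19.2 to 25.5 CPM in GR-KO over both rearings (log2 fold change -0.77, SE 0.17, adjusted p = 0.000206 by edgeR), and it passed in 14 of 14 alternatives. Hexokinase 2, Hk2, was lower (-1.14, SE 0.32, adjusted p = 0.00976), and the pyruvate dehydrogenase kinase Pdk1 (0.48, SE 0.13, adjusted p = 0.0122) and the peptide ligand Apln (0.66, SE 0.18, adjusted p = 0.00934) were higher, all by edgeR. The quasi-likelihood F-test called Pdk1 (adjusted p = 0.0452) but not Hk2 (adjusted p = 0.0919) or Apln (adjusted p = 0.0545), and each of the 3 was called in 9 of 14 alternatives, with an adjusted p up to 0.110, 0.101 and 0.102. In NR the histone demethylase Kdm3a was lower (-0.57, SE 0.18, adjusted p = 0.0276 by edgeR) beside P4ha2 (-0.97, SE 0.17, adjusted p = 1.22e-06). Kdm3a did not pass the quasi-likelihood F-test (adjusted p = 0.0646, edgeR) and was called in 6 of 11 alternatives, with an adjusted p between 2.32e-07 and 0.499.

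In GR-KO astrocytes the glycolytic enzyme Pfkp (0.54, SE 0.13, adjusted p = 0.00303) and the transcriptional repressor Mxi1 (0.53, SE 0.16, adjusted p = 0.0297) were higher in DR than in NR. The glycolytic enzyme Gapdh was lower (-0.69, SE 0.15, adjusted p = 0.000691), all by edgeR. Together this is 8.33% of the list beside 2.85% of all genes. In the same nuclei the neuronal markers were at 479 to 489 CPM in NR and 279 to 293 CPM in DR. Median depth was 12124 and 8662 UMIs in NR and 5227 and 4889 UMIs in DR. The part of these shifts in the fold changes was not tested. Pfkp and Gapdh were each called in 8 of 11 alternatives, with an adjusted p up to 0.313 and 0.208. Mxi1 did not pass the quasi-likelihood F-test (adjusted p = 0.0505, edgeR) and was called in 5 of 11 alternatives, with an adjusted p between 4.94e-07 and 0.521. Gapdh was also lower over both genotypes (-0.55, SE 0.13, adjusted p = 0.00754 by edgeR, 0.132 by the quasi-likelihood F-test). Outside astrocytes 35 of 489 pairs of this list were lower and 6 higher with dark rearing over both genotypes, which is 8.38% against the 5.55% of all pairs. By genotype over both rearings 2 of 489 pairs were higher, which is 0.409% beside the 0.0803% of all pairs.

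Of 10 listed symbols of VEGF ligands and receptors other than Vegfa, 9 were in the matrix and 6 were tested in astrocytes over both rearings. The list holds Vegfd and Figf, which name the same gene. Vegfc, a ligand known for lymphatic growth, rose in GR-KO by 0.66 on the log2 scale (SE 0.20, adjusted p = 0.0245 by edgeR), at 15.4 to 20.6 CPM against 8.17 to 15.4 CPM in GR-Con. This is 16.7% of the genes tested, beside 4.79% of all genes, and the quasi-likelihood F-test (adjusted p = 0.102) and DESeq2 (adjusted p = 0.0537) did not call it. It was called in 7 of 14 alternatives, with an adjusted p up to 0.179. No other gene of this list was called in astrocytes in any of the 7 comparisons by the likelihood ratio test. Outside astrocytes 9 of 69 pairs of the list were higher and 1 lower with dark rearing in GR-Con (14.5%, beside 2.4% of all pairs). In GR-KO 3 of 82 were higher and 5 lower (9.76%, beside 3.71%), and over both genotypes 4 of 75 were higher and 2 lower (8%, beside 5.55%). By genotype 0 of 80 pairs of this list were called in NR, 0 of 69 in DR and 0 of 75 over both rearings. The shares of all pairs called by the same likelihood ratio test were 0.37%, 0.496% and 0.0803%.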

How the data were processed

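Nuclei of 8 V1 libraries were profiled by single-nucleus RNA-seq. Per the methods of the study, the authors aligned reads with Cell Ranger (version 8.0.1 per the submitters' processing notes, which also name Seurat 5.3.0) to mm10 with the EGFP sequence added, removed nuclei of low or high gene counts and predicted doublets, and clustered nuclei into cell types. The matrix deposited by the authors holds raw UMI counts per gene and nucleus, and its sums equalled the UMI numbers of the deposited cell table in 102330 of 102330 nuclei. No further filter or doublet caller was applied.

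UMI counts were summed per library and cell type, so that the mouse was the unit of replication. Library names map to groups but not to the replicate numbers of the labels. Cell types with at least 10 nuclei in each library of a comparison went into edgeR 4.0.16 under R 4.3.3, with filterByExpr, TMM and the two-sided likelihood ratio test of glmFit, which the study used for NR. P-values were adjusted by Benjamini-Hochberg within a cell type and called under 0.05. SE is the log2 fold change divided by the root of its likelihood ratio. Alternatives were the quasi-likelihood F-test, DESeq2 1.42.0, other normalizations and filters, sex as a term, 1 fit over all 8 libraries and leaving out libraries. Fits without the 3 libraries poor in microglia were added after the data were seen. CPM are raw UMIs per 1000000, with SD over libraries of at least 10 nuclei. With 2 libraries a group, p-values rest on few mice. The fits were tested on simulated data, where the likelihood ratio test made more false calls than the quasi-likelihood F-test and than its threshold allows, and the interaction recovered fewest changed genes. Intervals of fold changes include the spread between libraries, and floors cover counting error only.

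Members and gene lists were chosen with earlier results of these data known. Named genes were the 10 members, up to 3 called genes per other list, direction and comparison in astrocytes, and the 3 genes most alike in pattern to each member. Positions are from GENCODE vM21 (GRCm38) by symbol, 10 of 10 matched. Promoter windows are from RefSeq (GRCm38.p6), and the set of windows used here held none for Epas1.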

Additional observations from a re-analysis of the deposited data

Results flagged for a closer look

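The genotype difference of Hif3a differed between astrocytes and 3 neuronal types by a test of the difference itself. The 5 types set against astrocytes were chosen by their Hif3a level in GR-Con, which favours types with a lower level in GR-KO. On the log2(CPM + 1) scale the astrocyte difference minus that in the other type was -1.70 for L5NP, -1.55 for L5PT and -1.12 for Vip interneurons (exact permutation test, p = 0.0286 each, adjusted p = 0.0476 over 5 types). With a pseudocount of 0.1 CPM in place of 1 all 3 calls were lost (adjusted p of 0.0714, 0.0714 and 0.143 by the same exact permutation test).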

How the results depend on the processing

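No paired analysis was possible because the library names carry no replicate numbers from the labels. Libraries could be matched by sex alone, and the fits with sex as a term are that block. The fall of Hif3a in GR-KO astrocytes kept its direction in all alternatives for NR, DR and both rearings, and only the quasi-likelihood F-test in DR lost the call. In astrocytes the members called by genotype in DR numbered 0 by the quasi-likelihood F-test, beside 0% of all genes, and 2 in 1 fit over all 8 libraries. This number could also change when a library was left out, as could those by rearing in GR-KO and for the interaction. The number for the interaction changed as well without the 3 libraries with few microglia nuclei, a choice made after seeing the data. Other than for the quasi-likelihood F-test, the share of all genes under these settings is not given, so the counts are no result about the members. The cause of these changes was not tested.

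Outside astrocytes the number of pairs called is given with the share of all pairs of a gene and a cell type called under the same setting. By genotype in NR it was 1 with sex as a term (0.992% of all pairs) and 0 to 4 when a library was left out (0.142% to 1.93%). By genotype in DR it was 0 by the quasi-likelihood F-test (0.00462%), 0 by DESeq2 (0.36%), 1 with no filter (0.241%), 1 in the fit over all libraries (0.274%) and 0 to 6 when a library was left out (0.121% to 2.2%). By rearing in GR-Con it was 0 to 9 when a library was left out (0.801% to 4.91%). By rearing in GR-KO it was 1 by the quasi-likelihood F-test (0.793%), 0 by DESeq2 (3.3%), 5 with sex as a term (6.26%) and 0 to 6 when a library was left out (0.849% to 6.23%). By genotype over both rearings it was 1 with sex as a term (0.137%), 1 without the 3 libraries (0.256%) and 0 to 2 when a library was left out (0.0593% to 0.553%). By rearing over both genotypes it was 8 with sex as a term (6.85%), 7 without the 3 libraries (5.08%) and 1 to 6 when a library was left out (2.49% to 6.16%). For the interaction it was 2 with sex as a term (0.586%), 1 without the 3 libraries (0.956%) and 0 to 3 when a library was left out (0.0655% to 0.656%).

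Some small log2 fold changes in astrocytes changed sign. Hif3a by rearing in GR-KO was -0.019 without TMM and -0.0026 to 0.10 when a library was left out. Epas1 by rearing over both genotypes was 0.14 without the 3 libraries and -0.18 to 0.064 when a library was left out. Over both rearings Egln1 ran from -0.042 to 0.12 and Vhl from -0.021 to 0.059 when a library was left out. In the GR-Con libraries only, the log2 difference between the highest and second highest cell type was 0.24 for Arnt2 and 1.31 for Vegfa, too few libraries to pass, and -0.17 for Egln2. With a pseudocount of 0.1 CPM the Hif3a effect in astrocytes differed by -1.71 from L5NP, -1.52 from L5PT and -1.06 from Vip interneurons, and none of the 3 calls remained. The share of astrocyte nuclei with a Hif3a UMI was 25.3%, 20.4%, 6.41% and 6.09% at 1000 UMIs and 77.5%, 72.0%, 36.5% and 23.0% unthinned in NR GR-Con, DR GR-Con, NR GR-KO and DR GR-KO.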

Other observations

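The 3 libraries with almost no microglia had the highest Hif3a levels in oligodendrocytes (23.8 to 72.9 CPM, against 2.31 to 16.3 CPM in the other 5). Fkbp5, a glucocorticoid-induced chaperone gene chosen after its values were seen, was at 125 to 172 CPM in oligodendrocytes of those 3 libraries and at 47.4 to 104 CPM in the other 5. In OPCs Fkbp5 was at 88.5 to 97.0 CPM in the 3 libraries and at 44.7 to 90.7 CPM in the other 5, so the ranges overlapped. Since Fkbp5 was picked with its values known, its likeness to Hif3a is no independent result. The share of all genes that separate these libraries is not given. These 3 libraries belong to NR GR-Con, NR GR-KO and DR GR-Con, so they cut across genotype and rearing, and no cause was tested.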
